A study of Arabidopsis thaliana with 15 samples.

Results

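The LATERAL ORGAN BOUNDARIES DOMAIN (LBD) genes of Arabidopsis thaliana were described by the marks H2AK121ub and H3K27me3 over each gene. Members were the nuclear protein coding genes whose symbol or synonym in the annotation was LBD followed by digits, which gave 40 genes, and LOB itself. These 41 members stood among 27444 nuclear protein coding genes. For 5 of them LBD was a synonym and another name came first, namely LBD3 (ASL9), LBD12 (ASL5), LBD17 (ASL15), LBD30 (JLO) and LBD36 (ASL1). Asymmetric Leaves2 (AS2), known elsewhere as LBD6, carries no LBD name in the annotation and was kept outside the counts. LBD34 had no match and was not analysed here.

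The study immunoprecipitated both histone marks from whole 10-day-old seedlings of the Col-0 strain. Its 15 libraries were 14 ChIP libraries in 7 groups of 2, plus 1 wild-type input. H2AK121ub was measured in emf1, ring1ab and wild type, and H3K27me3 in emf1, ring1ab, lhp1 and wild type. The emf1 plants carry the emf1-2 allele, ring1ab is a weak double mutant of the RING1 subunits of Polycomb repressive complex 1 (PRC1), and lhp1 lacks a reader of H3K27me3. The files described here were the consensus peak lists of the wild type alone, 1 per mark. Per the study's methods they hold the regions common to the replicates, and the final set combined wild-type seedlings of 7 and 10 days. The mutant libraries were left out of all results below. Each list gives positions in TAIR10 and no height, so every value below is a place, a length or a share of bases, with no replicate error. The lists carry no read depth. A gene without a peak is a gene without a call at these settings, and a low level of the mark there cannot be told apart from none. Because whole seedlings were used, marks on the same chromatin and marks in different cells of the plant cannot be told apart.

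LBD proteins are plant-specific transcription factors defined by a conserved block of cysteines near the amino terminus, and class I members also carry a leucine zipper-like coil that class II members lack. Many class I genes act where organs are set off from meristems or begin to grow, as in leaf bases, lateral roots, vascular tissue and pollen. Class II genes have been tied to nitrogen, anthocyanin and low oxygen responses. H2AK121ub is set by PRC1 and H3K27me3 by Polycomb repressive complex 2 (PRC2), and both are known for keeping developmental regulators silent outside their place and time.

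Most LBD genes carried both Polycomb marks. A gene was called marked when at least 1 bp of its body, or of a 750-bp window before its transcription start site (TSS), lay under a peak. H3K27me3 was called at 25 of the 41 members, 61.0%, against 29.2% of all protein coding genes. H2AK121ub was called at 34 members, 82.9%, against 68.1% of all. The H2AK121ub/H3K27me3 class held 24 members, 58.5%, beside 24.2% of all genes. Only-H2AK121ub held 10 members, 24.4%, against 43.9% of all, and the class with neither mark held 6, 14.6%, against 26.9%. LBD29 alone was only-H3K27me3, 2.44% of members beside 4.93% of all genes. The members were not sampled from the genome, and several are close relatives or neighbours, so these shares are given beside the background with no test. Among all genes within the members' length range of 475 to 3230 bp, the share called was 31.9% for H3K27me3 and 69.6% for H2AK121ub. By chromosome, H3K27me3 was called at 5 of 8 members on chromosome 1, 8 of 12 on chromosome 2, 6 of 12 on chromosome 3, 3 of 4 on chromosome 4 and 3 of 5 on chromosome 5.

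**Figure D1:**
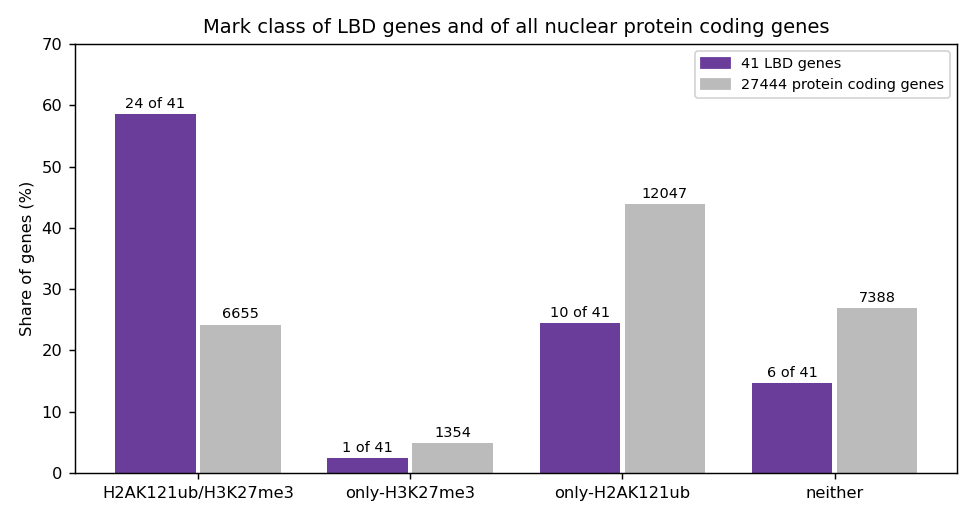
Share of genes in each mark class (vertical axis, %), with the 41 LBD genes in purple left of the 27444 protein coding genes in grey and the number of genes above each bar. The H2AK121ub/H3K27me3 bar stood at 58.5% for LBD genes and at 24.2% for all, and the order was the opposite in the other 3 classes.

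At most members with a call, the mark covered the larger part of the gene body. Over all 41 members the median share of the gene body under H3K27me3 was 92.6%, against 0% over all genes, and under H2AK121ub it was 88.4%, against 15.8%. The H3K27me3 median rests on a divided family, with 16 members uncalled, and was 62.1% with 1 member per run of neighbours and 45.6% over the 36 members named LBD or LOB by their first symbol. Calls with little cover of the body were H3K27me3 at LBD38 (0%) and LBD1 (30.2%), and H2AK121ub at LBD27 (6.81%), LBD26 (8.92%), LBD10 (20.5%), LBD7 (41.7%) and LOB (49.4%). H3K27me3 covered the complete body at 18 members, 43.9%, against 12.2% of all genes. Among genes with this mark that was 72.0% of LBD genes and 41.8% of all. H2AK121ub covered the complete body at 12 members, 29.3%, against 8.33% of all genes, which was 35.3% and 12.2% of the genes with the mark. Both marks covered every base of LBD11, LBD12, LBD16, LBD18, LBD33, LBD36 and LBD40, which are 7 members, 17.1%, against 3.32% of all genes. LBD genes were shorter than the rest, with a median of 1533 bp against 2078 bp, and a shorter body is more easily covered. How far length enters the cover was not tested.

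H3K27me3 reached over the TSS at 23 members, 56.1%, against 17.7% of all genes, and H2AK121ub at 22, 53.7%, against 30.2%. Within the 24 members that carried both marks the peaks began at different places. H3K27me3 lay over the TSS at 22 of the 24, 91.7%, and over 87.5% of them already 1000 bp upstream. H2AK121ub lay over the TSS of 17 of the 24, 70.8%, and was most frequent at 350 to 450 bp into the gene, with 23 members, 95.8%. Over the 6655 genes of the same class the values at the TSS were 59.1% for H3K27me3 and 58.7% for H2AK121ub, and at 400 bp 69.1% and 78.9%. A dip of H3K27me3 just upstream of the TSS, at 55.7% of all these genes 100 bp upstream, was not seen in the LBD genes, which stayed at 91.7% there.

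**Figure D2:**
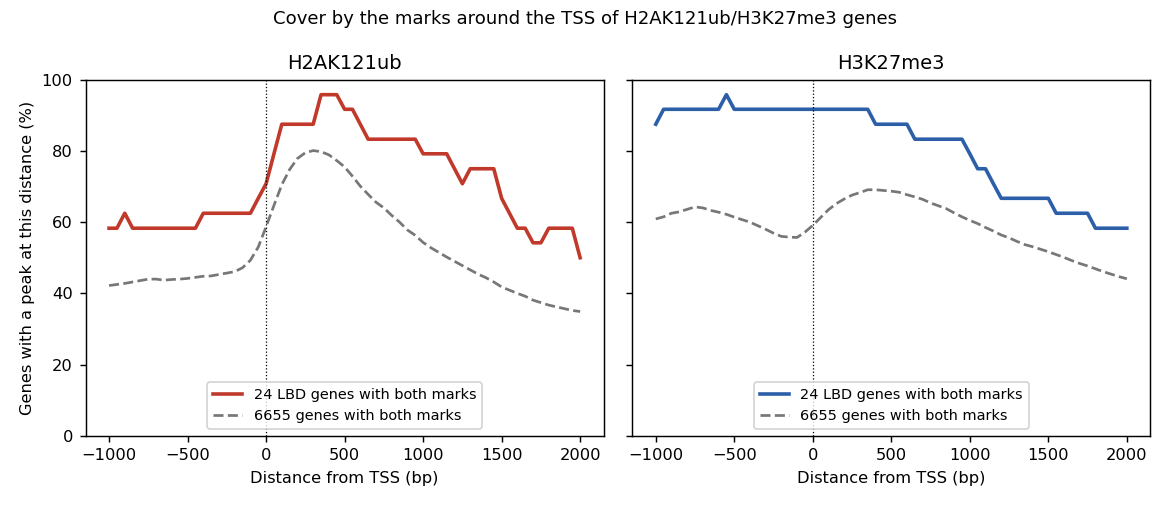
Share of genes with a peak (vertical axis, %) at each distance from the TSS (horizontal axis, bp, 50-bp steps), for the 24 LBD genes with both marks (solid) and all 6655 genes with both marks (dashed), H2AK121ub in the left panel and H3K27me3 in the right. H2AK121ub over LBD genes climbed across the TSS, with 70.8% there and 95.8% at 400 bp, whereas H3K27me3 had 87.5% at -1000 bp and stood between 91.7% and 95.8% from -950 bp to the TSS.

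The same offset appeared by gene part. In the 24 members with both marks H3K27me3 covered 91.7% of upstream bases, 90.6% of coding bases and 94.9% of intron bases. H2AK121ub covered 61.2% of their upstream bases, 93.4% of coding bases and 99.6% of intron bases. In all genes with both marks H3K27me3 covered 59.7% of upstream, 58.3% of coding and 52.2% of intron bases, and H2AK121ub 46.1%, 58.4% and 44.4%. At 12 of the 34 members with H2AK121ub the peak began downstream of the TSS, namely LOB, LBD7, LBD10, LBD17, LBD21, LBD25, LBD26, LBD27, LBD28, LBD30, LBD32 and LBD41. Such starts were not counted over all genes. H2AK121ub lay over the TSS at 64.7% of members with this mark, against 44.4% of all genes with it. A start inside the gene is therefore not set apart as a trait of the family. The H3K27me3 share of the body was the larger at 12 of the 24 members with both marks, 50%, the H2AK121ub share at 5, and they were equal at 7. Over all 6655 genes with both marks the H3K27me3 share was the larger at 2747, 41.3%. The H2AK121ub share was the larger at 2598 of these, and they were equal at 1310.

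At least 1 bp of gene region lay under both marks together at 23 members, 56.1%, against 23% of all genes. The median member with both marks had 1864 bp under both, against 869 bp over all such genes. The most was at LBD36 with 3707 bp, then LBD11 with 2770 bp, LBD16 with 2735 bp, LBD18 with 2446 bp and LBD15 with 2381 bp. LBD27 had both marks and no shared base, and LBD38 shared only 205 bp, all upstream of the gene.

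The median peak over LBD genes was longer than the median of all peaks. The 22 H3K27me3 peaks that met a member had a median of 6445 bp and ran between 1174 and 23161 bp, against a median of 2925 bp over all 4367 peaks. Of these, 8 were at least 9000 bp long, a length that 11.3% of all H3K27me3 peaks reached. None ran over more than 3 coding genes, and 11 of them met a single coding gene or none. All 22 met an H2AK121ub peak. These counts were not made over all H3K27me3 peaks. By gene, 6655 of the 8009 protein coding genes with H3K27me3 also carried H2AK121ub. The 34 H2AK121ub peaks at members had a median of 2912 bp (114 to 7612 bp), against 978 bp over all 16310. For both marks the comparison is with all peaks, also those that meet no gene. A longer peak is likelier to meet any given gene. Peaks that meet other genes were not compared, so how far this selection enters the lengths was not tested.

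**Figure D3:**
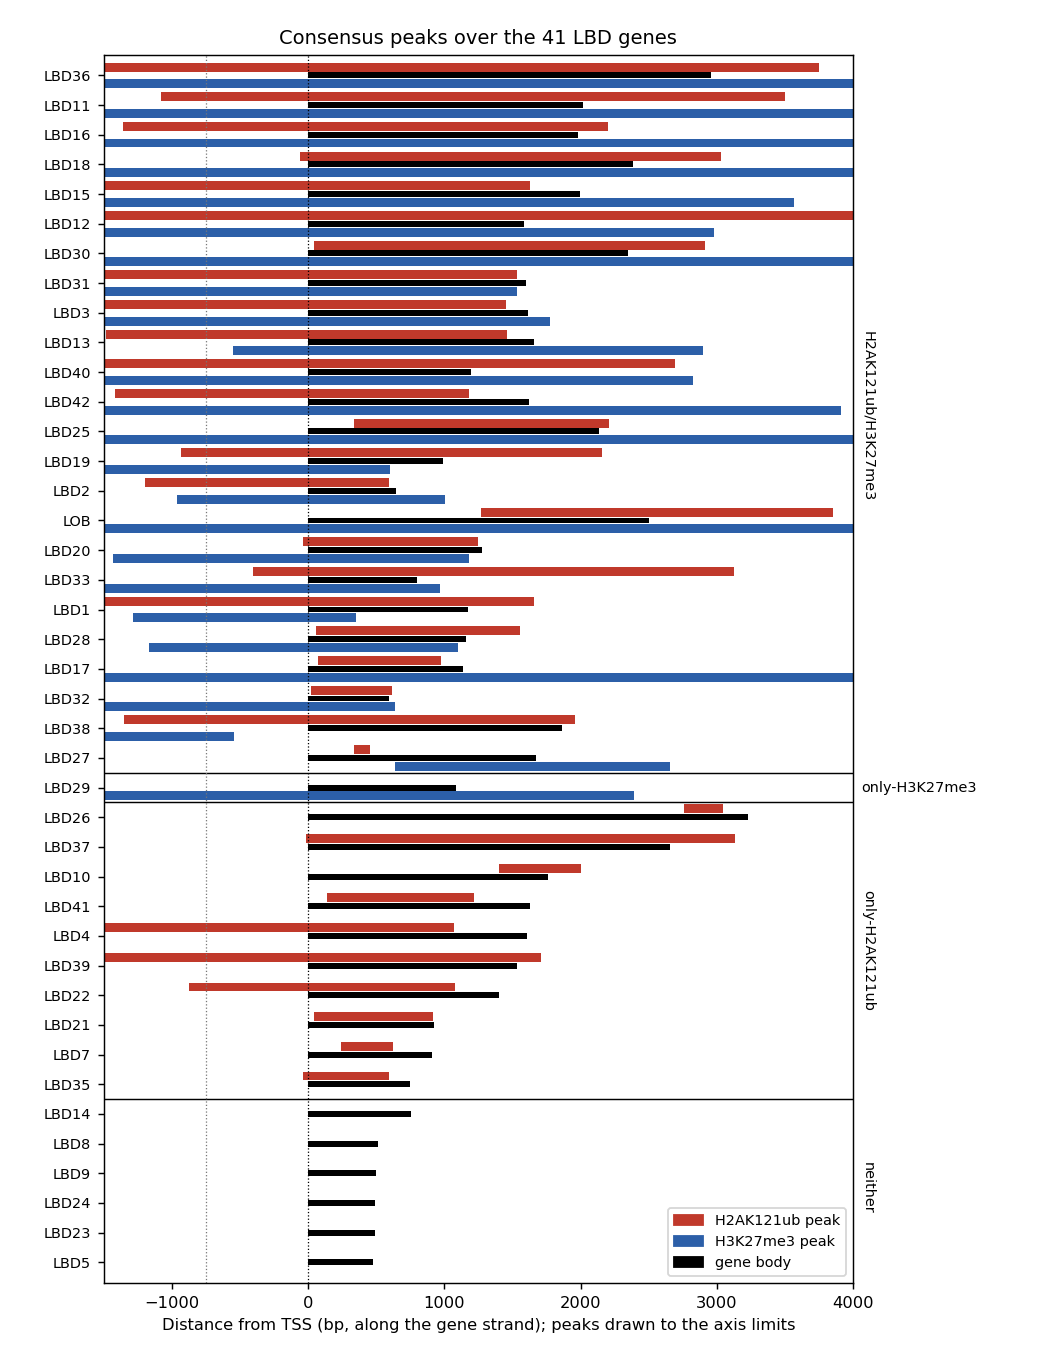
Consensus peaks at each of the 41 LBD genes, drawn along the gene's strand from its TSS (horizontal axis, bp; the dotted line left of the TSS is the end of the 750-bp upstream window), with H2AK121ub in red above the gene body in black and H3K27me3 in blue below it. Only peaks that met the gene region are drawn, up to the axis limits. Genes are grouped by class and ordered within it by bases under both marks or, without any, by length, and the 5 shortest genes without a peak stand at the foot.

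The genes of leaf and organ boundaries, LOB, LBD25 and LBD30, all carried both marks, beside 24.2% of all genes. Each had its complete body under H3K27me3, beside 12.2% of all genes. LOB (AT5G63090, chr5:25308516-25311019, minus strand) is the founding member, expressed at the base of lateral organs. Its H3K27me3 peak of 9199 bp ran on both sides of the gene, whereas its H2AK121ub peak of 2591 bp began 1267 bp into the gene and covered 49.4% of it, so that 1237 bp lay under both. LBD25 (AT3G27650, chr3:10238514-10240648, plus strand), the nearest relative of LOB by protein, showed the same order, with 9013 bp of H3K27me3 and an H2AK121ub peak of 1869 bp that began 338 bp into the gene and covered 84.2%. JAGGED LATERAL ORGANS, LBD30 (AT4G00220, chr4:89908-92255, plus strand), acts in organ patterning, and H2AK121ub began 40 bp into it and covered 98.3%. Upstream of all 3 genes the window was wholly H3K27me3 and held no H2AK121ub.

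Of the 6 genes of lateral root and callus formation, 4 carried both marks, beside 24.2% of all genes. LBD29 was only-H3K27me3 and LBD14 had neither. In this group auxin response factors activate LBD16, LBD18 and LBD29 when a lateral root is founded, and LBD17 and LBD33 work with or beside them. H3K27me3 covered the complete body at all but LBD14. LBD16 (AT2G42430, chr2:17663353-17665337, plus strand) lay wholly under both marks, in a 14299-bp H3K27me3 peak and a 3569-bp H2AK121ub peak that began at -1363 bp from the TSS. LBD18 (AT2G45420, chr2:18718348-18720729, plus strand) was likewise wholly covered, but its 3097-bp H2AK121ub peak reached only 64 bp upstream of the TSS, against the whole window for H3K27me3. LBD33 (AT5G06080, chr5:1830671-1831467, minus strand), a partner of LBD18, was wholly covered by 6760 bp of H3K27me3 and 3529 bp of H2AK121ub. The H2AK121ub peak there began 404 bp upstream and ran on past the gene over RBE.

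LBD17 (AT2G42440, chr2:17668701-17669836, minus strand) had an H2AK121ub peak of 908 bp within the gene, from 71 bp downstream of the TSS, and 79.9% of the body under it. LBD29 (AT3G58190, chr3:21548484-21549572, minus strand) lay in an 11463-bp H3K27me3 peak that met no other coding gene. No H2AK121ub was called over its 1089-bp body or upstream. The nearest H2AK121ub peak, chr3:21547141-21547367, was 227 bp long and stood 1117 bp beyond the end of the gene, where it met the same H3K27me3 peak. LBD14 (AT2G31310, chr2:13352917-13353672, plus strand) is described as a repressor of lateral root formation. Counted from the far end of its upstream window, its nearest peaks were 2311 bp away for H2AK121ub and 35860 bp for H3K27me3.

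Since auxin acts through this group, its upstream windows were read for the auxin response element TGTCTC on both strands. It was found upstream of LBD14, LBD16, LBD17, LBD29 and LBD33 and not in the window of LBD18. The stretches below show it in capitals, in the TAIR10 sequence written along each gene's strand, for members of the root group with H3K27me3, and for LBD1 and LBD30 as further marked members with the element within 120 bp of the TSS. It also began that near at LOB (-83 bp), which had H3K27me3, and at LBD10 (-47 bp) and LBD14 (-108 bp), which had none and are not shown. By this choice all the bases shown lay under H3K27me3, and those of LBD1, LBD16 and LBD33 under H2AK121ub too, whereas those of LBD17, LBD29 and LBD30 held no H2AK121ub.
LBD16, chr2:17662643-17662722, plus strand, starting at -710 bp from the TSS: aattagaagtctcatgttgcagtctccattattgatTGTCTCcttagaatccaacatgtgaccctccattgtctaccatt
LBD17, chr2:17670457-17670536, minus strand, starting at -700 bp from the TSS: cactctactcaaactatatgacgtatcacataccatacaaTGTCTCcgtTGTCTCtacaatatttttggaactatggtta
LBD29, chr3:21550133-21550212, minus strand, starting at -640 bp from the TSS: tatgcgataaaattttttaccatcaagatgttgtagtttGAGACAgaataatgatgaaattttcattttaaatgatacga
LBD33, chr5:1831468-1831587, minus strand, -120 to -1 bp from the TSS: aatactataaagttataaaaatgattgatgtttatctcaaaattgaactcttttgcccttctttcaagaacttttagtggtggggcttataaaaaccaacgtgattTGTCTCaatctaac
LBD1, chr1:2442450-2442569, plus strand, -120 to -1 bp from the TSS: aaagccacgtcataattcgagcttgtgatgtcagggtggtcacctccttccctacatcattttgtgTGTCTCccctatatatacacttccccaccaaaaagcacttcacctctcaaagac
LBD30, chr4:89788-89907, plus strand, -120 to -1 bp from the TSS: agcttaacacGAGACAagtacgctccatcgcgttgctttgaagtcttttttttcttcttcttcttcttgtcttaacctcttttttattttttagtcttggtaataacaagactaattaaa

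In LBD29 and LBD30 the element is read on the other strand, as GAGACA, and the stretch of LBD17 holds it in 2 copies. LBD33 has a further copy at -291 bp, outside the stretch shown. Over the family the element was found in 17 of 41 windows, 41.5%, against 30.9% of all 27443 windows of the same length. Among the 24 members with both marks it was found at 10, against 28.8% of all windows of that class. A match describes letters in a window and is not a site of binding.

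Of the 5 genes of wood and vascular growth, LBD1, LBD3, LBD11 and LBD15 carried both marks, beside 24.2% of all genes. LBD4 was only-H2AK121ub. The genes of this group act in or beside the cambium, the layer whose divisions thicken stem and root. LBD11 (AT2G28500, chr2:12186274-12188293, minus strand) lay in the longest H3K27me3 peak of the family, 23161 bp, and under 4582 bp of H2AK121ub. Its paralogue LBD1 (AT1G07900, chr1:2442570-2443746, plus strand) had 100% of its body under H2AK121ub and 30.2% under H3K27me3. The 1644-bp H3K27me3 peak of LBD1 lay mainly upstream and ended 354 bp into the gene, so the extents of the marks were turned round relative to LOB.

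LBD3 (AT1G16530, chr1:5651268-5652883, minus strand), a cytokinin-induced gene, was wholly under H3K27me3 and to 90% under a 5450-bp H2AK121ub peak that began at -3996 bp from the TSS. LBD15 (AT2G40470, chr2:16902038-16904032, minus strand) had 100% of its body under a 9019-bp H3K27me3 peak and 81.8% under 6781 bp of H2AK121ub. LBD4 (AT1G31320, chr1:11212958-11214567, plus strand), the nearest relative of LBD3 by protein, had 66.5% of its body under 3882 bp of H2AK121ub. An H3K27me3 peak of 1046 bp stood 406 bp beyond its end, the shortest such distance among the 16 members without this mark.

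All 4 genes grouped under pollen development carried H2AK121ub, beside 68.1% of all genes. LBD27 and LBD36 carried H3K27me3 as well, beside 29.2% of all genes. LBD25, also tied to pollen, was counted with the boundary genes above and carried both marks. LBD36 (AT5G66870, chr5:26705785-26708741, plus strand), also named ASL1, was covered completely by 7117 bp of H2AK121ub and 6982 bp of H3K27me3. LBD27 (AT3G47870, chr3:17659680-17661354, minus strand), SIDECAR POLLEN, had the thinnest call of the family. Its H2AK121ub peak was 114 bp long and lay 339 bp into the gene, and the H3K27me3 peak of 2027 bp began 634 bp into the gene, beyond that peak. Had an overlap of at least 200 bp been asked for, LBD27 would have been only-H3K27me3. LBD22 (AT3G13850, chr3:4559619-4561020, plus strand) had 76.9% of its body under H2AK121ub, whereas LBD10 (AT2G23660, chr2:10060065-10061822, minus strand) had 20.5%, from a 605-bp peak at its far end.

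The 6 class II genes all carried H2AK121ub, beside 68.1% of all genes, and 3 of them carried H3K27me3, beside 29.2%. Their median share of the body was 100% under H2AK121ub and 0% under H3K27me3. LBD37, LBD38 and LBD39 are repressors of anthocyanin synthesis induced by nitrate, and H2AK121ub covered each of them from end to end. LBD37 (AT5G67420, chr5:26903866-26906524, minus strand) had a 3156-bp H2AK121ub peak and its nearest H3K27me3 peak 2371 bp beyond the far end of the upstream window. LBD39 (AT4G37540, chr4:17639393-17640925, minus strand) had a 5285-bp H2AK121ub peak and its nearest H3K27me3 peak 3059 bp beyond the end of the gene. LBD38 (AT3G49940, chr3:18514266-18516131, plus strand) was called for H3K27me3 only because a 1174-bp peak ended at -546 bp from its TSS and put 205 bp of the window under the mark. With the gene body alone LBD38 was only-H2AK121ub, as LBD37 and LBD39 were.

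The edge of that H3K27me3 peak is shown because it sets the class of LBD38, with the bases under H3K27me3 in capitals and all bases under H2AK121ub.
LBD38, chr3:18513681-18513760, plus strand, -585 to -506 bp from the TSS: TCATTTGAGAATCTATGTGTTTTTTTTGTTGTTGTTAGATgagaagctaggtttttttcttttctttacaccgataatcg

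The second class II branch divided otherwise. LBD40 (AT1G67100, chr1:25053673-25054864, plus strand) was wholly covered by 5510 bp of H2AK121ub and 6130 bp of H3K27me3. LBD42 (AT1G68510, chr1:25706882-25708503, plus strand) was wholly under H3K27me3 and to 72.8% under H2AK121ub. LBD41 (AT3G02550, chr3:536500-538126, minus strand), a gene induced by low oxygen, had 66.3% of its body under a 1079-bp H2AK121ub peak that began 141 bp into the gene. Its nearest H3K27me3 peak was 16483 bp beyond the far end of the upstream window.

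LBD20 (AT3G03760, chr3:943557-944834, plus strand), tied to susceptibility of the root to Fusarium wilt, carried both marks. H2AK121ub covered 97.6% of it, from 41 bp upstream of the TSS, and H3K27me3 92.6%, from -1437 bp.

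Among the 16 members not placed in a role group, 7 carried both marks, 4 were only-H2AK121ub and 5 had neither. Over all genes the shares of these classes were 24.2%, 43.9% and 26.9%. The 7 were LBD2, LBD12, LBD13, LBD19, LBD28, LBD31 and LBD32. LBD12 (AT2G30130, chr2:12868461-12870045, plus strand) was wholly covered, by 7612 bp of H2AK121ub, the longest such peak of the family, and 8235 bp of H3K27me3. The other 6 had between 88.4% (LBD13) and 100% (LBD19) of the body under H2AK121ub and between 61.0% (LBD19) and 100% (LBD2, LBD13 and LBD32) under H3K27me3.

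The short genes LBD2 and LBD32 were almost wholly covered by both marks. LBD2 (AT1G06280, chr1:1920307-1920949, minus strand), a gene of 643 bp with a single exon, had 92.2% of its body under a 1794-bp H2AK121ub peak and 100% under a 1967-bp H3K27me3 peak, neither of which met another coding gene. LBD32 (AT4G22700, chr4:11933297-11933886, plus strand), the shortest marked member at 590 bp, had 96.6% under an H2AK121ub peak of 597 bp that began 20 bp into the gene. LBD13 (AT2G30340, chr2:12931172-12932828, minus strand), paired by protein with LBD15, had H2AK121ub over its whole upstream window and H3K27me3 over 551 of the 750 bp. In LBD28 (AT3G50510, chr3:18744887-18746045, minus strand) the peaks were staggered, with H3K27me3 from -1167 to 1101 bp from the TSS and H2AK121ub from 58 to 1552 bp, so that 95.1% of the body lay under H3K27me3, 95% under H2AK121ub and 1044 bp under both.

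The ungrouped only-H2AK121ub members were LBD7, LBD21, LBD26 and LBD35, and all had short peaks within or at the edge of the gene. LBD21 (AT3G11090, chr3:3474922-3475848, plus strand) had 94.1% of its body under an 872-bp peak. LBD35 (AT5G35900, chr5:14028682-14029426, plus strand) had 80.3% under 634 bp and LBD7 (AT1G72980, chr1:27456043-27456949, minus strand) 41.7% under 378 bp. LBD26 (AT3G27940, chr3:10373251-10376480, plus strand), the longest member at 3230 bp, had 8.92% under a 288-bp peak at its far end.

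The 6 members with neither mark were the shortest group, with lengths between 475 and 756 bp and a median of 495 bp, against 1619 bp for members with both marks. Over all genes the order was not the same, with a median of 2104 bp for neither and 1800 bp for both. They were LBD5 (AT1G36000, chr1:13422554-13423028, plus strand), LBD8 (AT2G19510, chr2:8453200-8453713, plus strand), LBD9 (AT2G19820, chr2:8553543-8554040, minus strand), LBD14, LBD23 (AT3G26620) and LBD24 (AT3G26660). Distances to peaks were counted from the gene region, so those on the upstream side start at the far end of the 750-bp window. Counted so, their nearest H2AK121ub peaks stood between 858 bp (LBD24) and 27248 bp (LBD5) away. Their nearest H3K27me3 peaks stood between 2161 bp (LBD8) and 50488 bp (LBD5) away. Genes filled 15.0% of the 200000 bp around LBD5, the lowest value in the family, so this gene stood in a gene-poor region. Over all 16 members without H3K27me3 the median distance from the gene region to the nearest peak was 6046 bp. A peak stood within 5 kb of the gene region at 6 of them.

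LBD23 (chr3:9790628-9791117, plus strand) and LBD24 (chr3:9797129-9797620, minus strand) are near copies. Their 366 coding bases differed at 3 positions, an identity of 99.18%, while their upstream windows matched at 68.9% of bases. Of the 100-base words of each gene region, 84.31% were unique in the genome for LBD23 and 84.34% for LBD24, against 100% at the other 39 members. How the authors treated reads that map to several places is not given in the sources used here, and its part in the missing calls was not tested. Coding bases 269 to 358 are shown to make the likeness visible, with the positions that differ in capitals.
LBD23, chr3:9791015-9791104, plus strand: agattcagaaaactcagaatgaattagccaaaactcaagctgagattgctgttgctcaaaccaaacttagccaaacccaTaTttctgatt
LBD24, chr3:9797144-9797233, minus strand: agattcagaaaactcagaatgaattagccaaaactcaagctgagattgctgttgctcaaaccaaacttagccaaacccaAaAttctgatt

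Several members stood side by side in the genome. Within 20 kb of each other lay 4 pairs, with 8 members. In 3 pairs both genes carried both marks under a shared H3K27me3 peak, and in no pair did they share an H2AK121ub peak. LBD16 and LBD17, which point toward each other 3363 bp apart, lay under chr2:17657246-17671544. That 14299-bp H3K27me3 peak held 3 separate H2AK121ub peaks, of 871, 3569 and 908 bp, the last 2 over the LBD genes.

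LBD19 (AT2G45410, chr2:18712220-18713211, minus strand) and LBD18 point away from each other across 5136 bp. Their H3K27me3 peak chr2:18712607-18730422, of 17816 bp, began inside LBD19, covered 61.0% of it and ran on over LBD18 and AHL22. It met H2AK121ub peaks of 3092 bp at LBD19 and 3097 bp at LBD18, and another of 2248 bp beyond. LBD31 (AT4G00210, chr4:85471-87071, minus strand) and LBD30 also point away from each other, 2836 bp apart, under chr4:85539-95025, a 9487-bp H3K27me3 peak. H2AK121ub peaks of 3514 and 2876 bp covered 95.9% of LBD31 and 98.3% of LBD30. LBD23 and LBD24, 6011 bp apart with 3 genes between, made the pair without marks. Counting each run of neighbours once, H3K27me3 was called at 22 of 37 members.

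**Figure D4:**
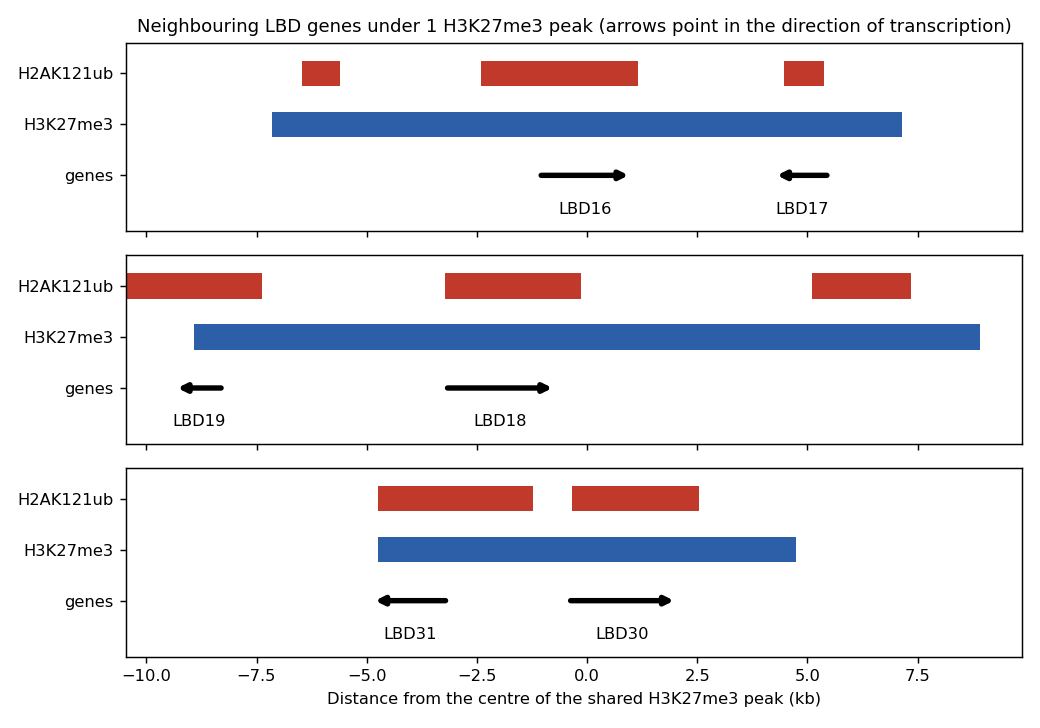
Peaks at the 3 pairs of neighbouring LBD genes that share an H3K27me3 peak, drawn by distance from the centre of that peak (horizontal axis, kb), with H2AK121ub in red, H3K27me3 in blue and the LBD genes as arrows along their strand. Each panel has 1 H3K27me3 peak over both genes, of 14299, 17816 and 9487 bp from top to bottom, and separate H2AK121ub peaks at each gene, the leftmost of the middle panel cut by the axis.

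Related proteins did not always share a class. The nearest paralogue, by identical residues as a share of the shorter annotated protein, was in the same class for 22 of 41 members. There were 13 pairs in which each gene was the nearest of the other, and 8 of these shared a class. Among the closest were LBD23 and LBD24 at 98.3% and LBD5 and LBD8 at 84.2%, both pairs without marks. LBD1 and LBD11 at 81.1% and LBD18 and LBD30 at 66.2% carried both marks on both genes.

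The 5 pairs that differed were LBD37 and LBD38 (79.4% identity), LBD40 and LBD41 (66.1%), LBD17 and LBD29 (65.6%), LBD3 and LBD4 (58.2%) and LBD32 and LBD35 (46.9%). In 4 of them both genes had H2AK121ub and a single gene had H3K27me3. Of these, LBD37 and LBD38 differed only through 205 bp of the upstream window of LBD38, whose body had 0% under H3K27me3. In LBD17 and LBD29 both had H3K27me3 and H2AK121ub was called at LBD17 alone. The neighbours that share an H3K27me3 peak had 38.5% identity for LBD16 and LBD17, 52.4% for LBD18 and LBD19, and 49.1% for LBD30 and LBD31. The cysteine block, searched with a fixed spacing, was found in 40 of the 41 proteins. LBD3 alone had no match to that spacing, which does not show that it lacks the block. A strict leucine spacing of the coil was found in 8, none of them class II. Of these 8, 7 carried both marks and LBD21 was only-H2AK121ub, while 17 of the 33 members without the spacing carried both, beside 24.2% of all genes. The 33 hold the 6 class II genes, the 6 short members with neither mark and further class I genes in which the spacing was not found. The counts therefore do not compare class I with class II.

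The upstream windows were also searched, on both strands, for the telobox AAACCCTA, the GA repeat GAGAGA and the LOB-domain motif GCGGCG. The telobox and GA repeats are bound by proteins that bring in PRC2, and the LOB domain binds the last of the 3. The telobox was found upstream of LOB, LBD28 and LBD39, 7.32% of members, against 10.2% of all windows. GAGAGA was found at 20 members, 48.8%, against 47.0%, and GCGGCG at LBD40 alone, 2.44%, against 5.3%. These shares were near the background or under it. A match to TGTCTC and a GA repeat on the opposite strand can overlap, as they did in the windows of LBD5, LBD14 and LBD23.

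LOB and LBD40 are shown because each held several of these motifs close together, with every match to any of the 4 motifs in capitals. The LOB stretch has the GA repeat in 2 copies and, on the reverse strand, the telobox and the auxin response element, all under H3K27me3 without H2AK121ub. The LBD40 stretch has the LOB-domain motif, the auxin response element and, on the reverse strand, the GA repeat, all under both marks.
LOB, chr5:25311240-25311329, minus strand, starting at -310 bp from the TSS: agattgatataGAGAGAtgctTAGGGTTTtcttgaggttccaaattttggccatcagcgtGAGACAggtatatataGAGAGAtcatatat
LBD40, chr1:25052923-25053032, plus strand, starting at -750 bp from the TSS: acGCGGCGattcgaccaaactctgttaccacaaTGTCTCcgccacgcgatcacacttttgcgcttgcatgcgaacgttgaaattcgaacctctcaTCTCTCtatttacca

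Genes that act with the family were read in the same way from a list of 17 partners, regulators and targets. Both marks were called at 9 of the 17, beside 24.2% of all genes, and H3K27me3 alone at 1, beside 4.93%. H2AK121ub alone was called at 5, beside 43.9%, and neither at 2, beside 26.9%. The list is short and chosen by role, so these counts are a description. The meristem genes of the KNOX family, which AS2 and AS1 keep out of leaves, carried H3K27me3 over 100% of KNAT1 and KNAT2 and 99.1% of KNAT6. H2AK121ub covered 63.8% of KNAT6 and 38.0% of KNAT2, and KNAT1, like LBD29, had none called. AS1, the partner of AS2, was only-H2AK121ub, with 47.5% of its body covered.

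BOP1 and BOP2, which act upstream of LBD genes at leaf bases, had 100% of the body under H3K27me3 and 90.9% and 35.7% under H2AK121ub. On the auxin side, the response factors ARF7 and ARF4 had neither mark, and ARF19 and ARF3 had H2AK121ub over 21.8% and 21.4%. The repressor IAA14, by contrast, had 100% under H2AK121ub and 63.3% under H3K27me3. PUCHI, an AP2 factor of the lateral root, was wholly under both.

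Among genes that LBD proteins activate or repress, LAX3 and E2FA were only-H2AK121ub, with 60.5% and 8.07% of the body covered, while EXPA14 had 98.8% under H2AK121ub and 25.3% under H3K27me3. VND7, the regulator of vessel formation linked to LBD18 and LBD30, had 69.1% under H2AK121ub and 100% under H3K27me3. BAS1, a brassinosteroid-inactivating enzyme under the control of LOB, had 100% under H2AK121ub and 3.6% under H3K27me3.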

How the data were processed

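H2AK121ub and H3K27me3 were measured by ChIP-seq in whole seedlings, grouped by the sample titles. Per the study's methods the authors used Bowtie to place the reads on TAIR10 and MACS2, with its default settings and the input as control, to call peaks per wild-type replicate, then kept regions common to the replicates. The final set, per those methods, also combined the peaks of wild-type seedlings at 7 and 10 days. The lists do not label which age a peak came from. Versions are not given in the sources used here. The deposited values were 2 lists of 3 columns (chromosome, start and end), which carry no score, so peaks had equal weight and no test was possible.

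Peaks were set against the RefSeq annotation of TAIR10.1, whose nuclear chromosomes have the same sequence as TAIR10, in Python 3.11.15 with numpy 2.4.6. A gene region was the body plus 750 bp upstream, the rule of the study's methods. The study's filter on genes of low signal was not applied. Upstream bases were read from the genome, and proteins were translated from annotated coding sequence and aligned globally with Biopython 1.88 (BLOSUM62). Overlap scripts were tested on simulated data. Every member is named. Members, role groups, partners and motifs were chosen with earlier results of these data known. Other gene regions, overlap minimums, peak lists and member sets were tried.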

Additional observations from a re-analysis of the deposited data

How the results depend on the processing

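Of 63 combinations of 10 results with an alternative, 59 kept the value within 1.5 times and 4 did not. That limit is wide, and counts were compared as numbers of genes also where the member set was smaller. The 59 include the median share of the body under H3K27me3 with 1 member per run of neighbours, 62.1% in place of 92.6%. Only-H3K27me3 held 2 members in place of 1 when at least 200 bp of overlap was asked for, and likewise 2 when peaks under 200 bp were left out, since the 114-bp H2AK121ub peak of LBD27 then dropped out. The class with neither mark held 1 member, LBD14, in place of 6 among the 34 members of at least 700 bp, a set chosen after seeing the data. The median share of the body under H3K27me3 was 45.6% in place of 92.6% over the 36 members whose first symbol was LBD or LOB, since 5 members with the mark were removed. The count of members with H3K27me3 ran between 20 (of those 36) and 25, with 24 for the gene body alone and 23 of the 34 longer members. Among all genes of at least 700 bp the shares were 28.9% for H3K27me3 and 70.1% for H2AK121ub.

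No paired analysis was possible because each list is a consensus of its replicates. For the same reason no replicate was left out in turn, and a stricter list by peak score was not run because the lists hold none. Peak edges depend on the caller and on depth, which the lists do not carry.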

Other observations

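AS2 (AT1G65620, chr1:24398143-24400989, plus strand), the LBD protein that keeps KNOX genes out of leaves, carried both marks. An 18204-bp H3K27me3 peak covered its whole body, and 2 H2AK121ub peaks, of 3552 and 1543 bp, covered 62.6%. The first of these ended 237 bp into the gene and the second began 1128 bp into it, so the middle of AS2 lay under H3K27me3 without H2AK121ub. It had 2531 bp under both marks, a value between those of LBD16 and LBD18.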
